A study of Rattus norvegicus with 25 samples.

Results

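Lipid droplet proteins and lipases were taken as 10 genes, Plin2, Plin3, Cideb, Cidec, Pnpla2, Abhd5, Lipe, Mgll, Lipa and Lipc, and were followed through all the cell lines of a study of the Sar1 GTPases. Their members are all probe sets that carry exactly 1 gene symbol and whose symbol is among these genes, which gave 16 of 31042 probe sets and 10 of 14217 genes. Mgll had 4 probe sets, Plin2, Abhd5 and Lipe had 2 each, and the other genes had 1 each. All 10 genes were measured in every line and no filter on low values was applied.

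RNA was hybridized to 25 Affymetrix rat genome arrays from 7 stable McArdle-RH7777 lines. McArdle-RH7777 is a hepatoma of the rat whose cells make and secrete apoB-containing lipoproteins. The lines formed 4 groups, namely control (2 lines with 2 and 3 arrays), Sar1A (1 line with 4 arrays), Sar1B (2 lines with 4 arrays each) and Sar1B:H79G (2 lines with 4 arrays each). The last 3 groups carried a human SAR1 transgene with a FLAG tag. Sar1B:H79G is a mutant that binds GTP but does not complete its hydrolysis. The paper describes its control cells as carrying an empty vector. It reports more recombinant Sar1 in its Sar1A lines than in its Sar1B and Sar1B:H79G lines. Construct and amount of transgene protein cannot be told apart where these groups are compared. All cells, the controls included, had been given 1 µg/ml tetracycline for 24 h, which induces the transgene, and were kept in the antibiotics that select for the vectors. Each line came from 1 picked clone, so that a group of 2 lines is 2 clones and Sar1A is 1 clone. Repeat arrays of 1 line are technical replicates by the methods, and therefore the line was the replicate in the main fit. Alternatives on single arrays, with or without the line as a random block, are named where used.

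The lipid droplet is a store of triglyceride and cholesteryl ester within a single layer of phospholipid, and its surface proteins decide which enzymes reach the lipid. Perilipins coat the surface, CIDE proteins exchange lipid between droplets, and a chain of cytosolic lipases breaks triglyceride down step by step. In hepatocytes, lipid from droplets is also hydrolysed in the lysosome and re-esterified in the endoplasmic reticulum, where it is loaded onto nascent apoB lipoproteins. Sar1 is the small GTPase that starts the assembly of the COPII coat, which carries cargo out of the endoplasmic reticulum.

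On the brightest probe set of each gene, 5 of the 10 genes fell in the Sar1B:H79G lines against control and none rose. These were the lysosomal acid lipase Lipa, the hepatic lipase Lipc, the droplet protein Cideb, the perilipin Plin3 and the monoglyceride lipase Mgll. The falls lay between 2.03-fold for Lipa and 1.28-fold for Mgll. Mgll was called on its brightest probe set, at the 55.2 percentile, and on none of its others. With the mean of its 4 probe sets the difference was -0.00 (adjusted p = 0.98, limma). Over all 14217 genes, 10.6% were called lower and 13.4% higher in this comparison. Calls are limma tests on the line means with a Benjamini-Hochberg adjusted p under 0.05 over all probe sets. When 1 line was left out, the number called became 2 for either control line, 3 for line 1 of Sar1B:H79G and 2 for line 2 of Sar1B:H79G. The median log2 difference of the 10 genes was -0.28, and that of all genes was 0.02. Lipa and Plin3 were also lower in Sar1B:H79G than in Sar1B and Sar1A, and their calls against control and against Sar1B were kept in all 15 alternative analyses.

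The control arrays carry a different prefix in their sample names from the one all other arrays share. What the prefix marks is not given in the sources used here, and in any comparison with control the prefix and the construct cannot be told apart. Sar1B:H79G, Sar1B and Sar1A share 1 prefix. The 5′ minus 3′ log2 signal of the bacterial spike-in RNAs was -1.63 and -1.74 in the control lines and between -0.84 and -0.76 in the others. The same measure for actin was -0.81 and -0.94 in control, -0.61 in Sar1A, between -0.50 and -0.49 in Sar1B and between -0.71 and -0.63 in Sar1B:H79G. The part of these differences in the results was not tested. Array medians lay between 8.10 and 8.16, no pair of arrays was identical, and arrays correlated at 0.991 or more within lines, at 0.986 or more across lines of 1 group and at 0.956 or more across groups. All 8 hepatocyte markers were measured, at the 89.2 to 99.9 percentiles of all probe sets, and Afp, a marker of hepatoma cells, lay between 13.78 and 14.77. Some of these markers varied between arrays, from 9.97 to 12.69 for Apob, 10.32 to 12.20 for Alb and 9.68 to 10.99 for Hnf4a. The mean of the 8 markers was 12.80 and 12.39 in control, 12.44 in Sar1A, 12.42 and 12.73 in Sar1B, and 12.05 and 12.18 in Sar1B:H79G, the lowest of the 7 lines. Of the 8, Apob, Serpina1 and Hnf4a were called lower in Sar1B:H79G against control, Apob and Hnf4a against Sar1B and Hnf4a against Sar1A, and none was called in the other comparisons. The part of these shifts in the falls of the 10 genes was not tested. The 7 markers of adipocytes, fibroblasts, endothelium and leukocytes lay at the 8.9 to 50.6 percentiles, with Adipoq between 7.57 and 7.91 and Ptprc between 7.08 and 7.60. As RNA of whole cultures was read, fewer cells that carry a transcript and less of it per cell cannot be told apart. The transgene is human and the probe sets are of rat, and the rat Sar1a probe set read 11.47 and 11.31 in control, 13.10 in Sar1A, 12.05 and 11.46 in Sar1B, and 12.75 and 13.01 in Sar1B:H79G. The other Sar1a probe set read 11.94 and 11.80 in control, 12.07 in Sar1A, 12.09 and 11.50 in Sar1B, and 12.73 and 12.85 in Sar1B:H79G, so that the high reading in Sar1A was found on 1 of them. Sar1b read 11.52 and 11.39 in control, 11.19 in Sar1A, 11.31 and 11.41 in Sar1B, and 11.24 and 11.29 in Sar1B:H79G. No rise was thus seen on it in the lines that carry human SAR1B. The paper reports more Sar1a mRNA by RT-qPCR, and more Sar1a protein, in its Sar1B:H79G cells than in control cells. Whether the Sar1a probe sets bind the human SAR1A transcript is not known from the data.

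Promoter sequences are shown for 3 genes that fell, Lipa and Plin3 because they differed from all other groups and Lipc because its promoter holds a half-site of the liver factor HNF1 close to the start. RefSeq entries of the rat build GRCr8 were matched for 9 of the 10 genes, with 10 promoters in all since Plin2 has 2. Each sequence runs over 300 bases on the minus strand, 250 before the start site and 50 from it on, and is written 5′ to 3′. Lipa lies at chr1:241470691-241470990, Plin3 at chr9:1210163-1210462 and Lipc at chr8:80516236-80516535. Capitals mark the CCAAT box, here always in its reverse form ATTGG, and in Lipc also the HNF1 half-site GTTAAT.
Lipa: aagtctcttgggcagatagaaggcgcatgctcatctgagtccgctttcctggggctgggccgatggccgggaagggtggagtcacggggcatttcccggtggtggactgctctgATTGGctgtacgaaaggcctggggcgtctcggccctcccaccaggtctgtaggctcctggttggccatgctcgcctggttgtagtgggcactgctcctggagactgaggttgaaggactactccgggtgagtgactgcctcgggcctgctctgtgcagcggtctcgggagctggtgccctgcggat
Plin3: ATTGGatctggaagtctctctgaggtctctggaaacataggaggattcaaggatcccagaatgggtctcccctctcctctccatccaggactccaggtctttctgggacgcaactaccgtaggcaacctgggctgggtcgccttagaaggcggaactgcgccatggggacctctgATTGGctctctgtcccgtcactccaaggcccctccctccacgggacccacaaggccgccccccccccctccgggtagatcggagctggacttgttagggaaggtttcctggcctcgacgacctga
Lipc: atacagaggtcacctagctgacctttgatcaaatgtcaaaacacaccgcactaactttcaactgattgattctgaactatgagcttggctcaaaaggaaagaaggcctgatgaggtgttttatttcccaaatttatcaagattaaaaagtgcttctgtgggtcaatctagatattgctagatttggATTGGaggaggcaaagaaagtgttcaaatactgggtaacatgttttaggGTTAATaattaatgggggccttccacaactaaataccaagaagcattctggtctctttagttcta
The motifs were chosen after the sequences had been seen, and each was searched on both strands. CCAAT was found in 5 of the 10 promoters, those of Plin2, Plin3, Mgll, Lipa and Lipc, and in 37.5% of all 33469 rat promoters of the same length. It began 136 bases before the start site in Lipa, 250 and 75 bases before it in Plin3, and 64 bases before it in Lipc. The HNF1 half-site GTTAAT began 15 bases before the start site of Lipc, in no other member's promoter, and was found in 7.45% of all promoters. The E-box CACGTG, which factors of the TFEB and TFE3 family bind, was found in the promoters of Plin2 and Mgll and in 6.42% of all promoters. The half-site AGGTCA of nuclear receptors was found in the promoters of Abhd5 and Lipc and in 16.2% of all. None of these 4 motifs overlapped another in the members' promoters. The promoters of Lipa and Plin3 share the run ctctgATTGGct, which begins 141 bases before the start site in Lipa and 80 bases before it in Plin3 and is found in 64 promoters (0.191%). These matches describe letters in a window and say nothing of which factor is bound there.

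Among the droplet coat proteins, Plin3, a perilipin that moves from the cytosol onto growing droplets, was lower in Sar1B:H79G than in every other group. On the log2 scale, the arrays of Sar1B:H79G line 1 read 10.93, 10.88, 10.73 and 10.72 and those of line 2 read 10.87, 10.83, 10.81 and 10.84. The controls read 11.76 and 11.66 in line 1 and 11.39, 11.38 and 11.35 in line 2. Sar1A read 11.92, 11.74, 11.67 and 11.70, and the 8 Sar1B arrays had a lowest value of 11.51, a median of 11.71 and a highest value of 11.84. All 8 Sar1B:H79G arrays lay below all arrays of the other groups, and the lowest other signals were those of control line 2. The log2 difference was -0.71 ± 0.11 (SE, 2 lines against 2) from control (adjusted p = 0.0098, limma), -0.87 ± 0.11 from Sar1B (adjusted p = 0.0092) and -0.94 ± 0.14 from Sar1A (adjusted p = 0.028). In fold this is 1.64, 1.83 and 1.91. The call against Sar1A was lost when only these groups were fitted (adjusted p = 0.076), with the line number as a block (adjusted p = 0.055), without Sar1B:H79G line 1 (adjusted p = 0.051) and without line 2 (adjusted p = 0.066). Sar1B and control differed by 0.16 (95% interval -0.11 to 0.43) and Sar1A and control by 0.22 (-0.12 to 0.56), with adjusted p = 0.39 in both.

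Plin2, the perilipin bound to droplets at all times and the usual droplet marker of hepatocytes, passed the test in none of the 6 comparisons. Its line means were 11.51 and 11.28 in control, 11.29 in Sar1A, 12.11 and 11.59 in Sar1B, and 11.02 and 11.34 in Sar1B:H79G. Sar1B line 1 stood highest and Sar1B:H79G line 1 lowest, and the arrays of Sar1B and Sar1B:H79G did not overlap. The difference between those groups was -0.66 (95% interval -1.14 to -0.19), with adjusted p = 0.1. It became -0.93 without Sar1B line 2, which left 1 Sar1B line and took the gap between the Sar1B clones out of the spread. With the line as a random block it passed the test (adjusted p = 1.5e-05, limma). That fit used single arrays with 1 correlation of 0.27 within lines for all genes. Against control, Sar1B differed by 0.45 (-0.02 to 0.93, adjusted p = 0.18) and Sar1B:H79G by -0.21 (-0.68 to 0.26, adjusted p = 0.46). The second, dimmer probe set of Plin2 gave differences of 0.01 and -0.41 for these groups, and -0.42 between them (adjusted p = 0.16).

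**Figure D1:**
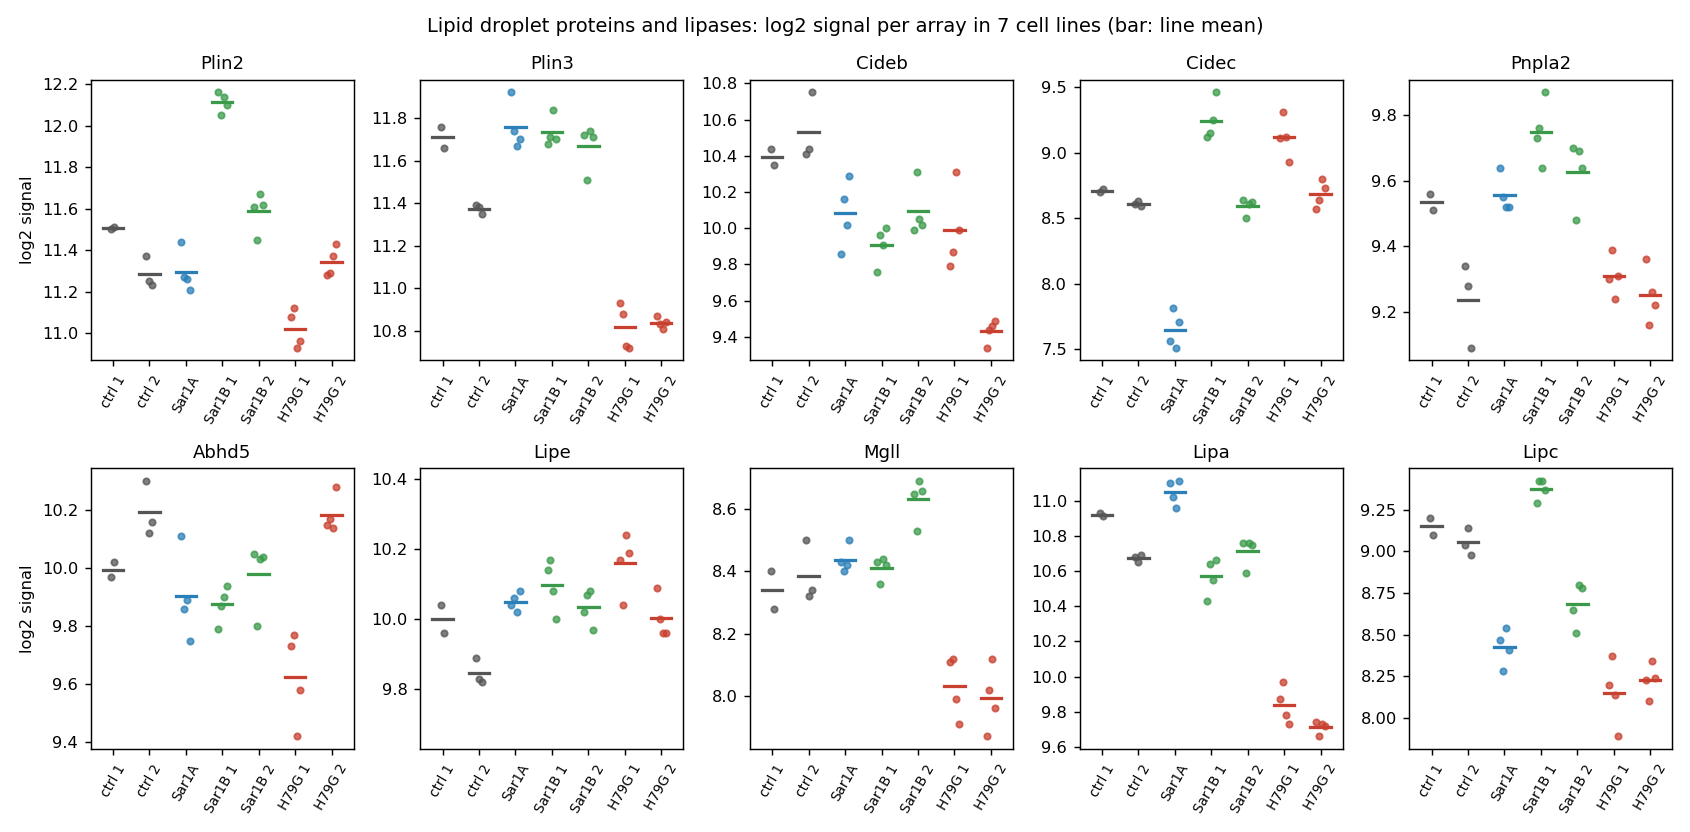
Log2 signal of the brightest probe set of each of the 10 genes (y axis, a separate range in each panel) in the 7 cell lines (x axis, ctrl is control and H79G is Sar1B:H79G). Points are arrays and bars are line means, and in Plin3 and Lipa both Sar1B:H79G lines lie below all others, with line means of 10.81 to 10.84 and of 9.71 to 9.84.

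Cideb, a CIDE protein of hepatocytes that acts in the lipidation of VLDL and in droplet fusion, was highest in control. The control arrays read 10.44 and 10.35 in line 1 and 10.41, 10.44 and 10.75 in line 2. The Sar1B:H79G arrays read 9.79, 9.87, 10.31 and 9.99 in line 1 and 9.34, 9.44, 9.46 and 9.49 in line 2, so that the 2 clones of the mutant differed by 0.56 in their means. Line means were 10.08 in Sar1A and 9.91 and 10.09 in Sar1B, and no array of these groups reached the lowest control array. Cideb fell by 0.75 on the log2 scale in Sar1B:H79G against control (SE 0.18, adjusted p = 0.034, limma). Leaving out control line 1 ended this call (adjusted p = 0.094), as did leaving out control line 2 (adjusted p = 0.18) or Sar1B:H79G line 2 (adjusted p = 0.052) and taking the line number as a block (adjusted p = 0.053). The difference from control was -0.46 (-0.90 to -0.02) in Sar1B and -0.38 (-0.92 to 0.16) in Sar1A, with adjusted p = 0.16 and 0.36. The Sar1B value passed the test with only these groups fitted (adjusted p = 0.045, limma). It also passed with the line as a random block (adjusted p = 0.013). Without either Sar1B:H79G line, which enters only through the shared estimate of the spread, it stayed at -0.46. Among the lines that share a name prefix, Sar1B:H79G differed from Sar1B by -0.29 (-0.73 to 0.15, adjusted p = 0.48, and -0.57 with adjusted p = 0.05 without Sar1B:H79G line 1) and from Sar1A by -0.37 (-0.91 to 0.17, adjusted p = 0.58).

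Cidec, which joins small droplets into large ones and is known from fatty liver and adipose tissue, stood apart in the Sar1A clone. Its Sar1A arrays read 7.56, 7.81, 7.51 and 7.71. Line means elsewhere were 8.71 and 8.61 in control, 9.24 and 8.59 in Sar1B, and 9.12 and 8.69 in Sar1B:H79G. The Sar1A arrays lay below all arrays of the other groups, which overlapped with each other. Sar1A differed from control by -1.01 (-1.70 to -0.32, adjusted p = 0.12), and from Sar1B by -1.27 (-1.96 to -0.58, adjusted p = 0.42). Sar1B:H79G differed from Sar1A by 1.25 (0.56 to 1.94, adjusted p = 0.085). None of these passed the test in the fit of all 7 line means. Without either Sar1B line the difference between Sar1B:H79G and Sar1A stayed at 1.25. Sar1B lines enter that comparison only through the shared estimate of the spread. With the line number, which pairs no clones across groups, as a block the difference was 1.45 and passed (adjusted p = 0.042, limma). That between Sar1A and control passed with only these groups fitted (adjusted p = 0.0031). With the line as a random block, Sar1A differed from control, Sar1B and Sar1B:H79G at adjusted p = 8.1e-05, 7.8e-06 and 1.1e-06. In that fit arrays of a line, taken as correlated at 0.27 for all genes, counted in part as replicates. With 1 Sar1A line the transgene and the clone cannot be told apart. Sar1B:H79G differed from control by 0.24 (-0.32 to 0.80, adjusted p = 0.48).

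Among the proteins of the cytosolic chain, Pnpla2, Abhd5 and Lipe passed the test in no comparison of the fit on all 7 line means, and Mgll passed it in some. Pnpla2, the adipose triglyceride lipase that takes the first fatty acid, had line means of 9.54 and 9.24 in control, 9.56 in Sar1A, 9.75 and 9.62 in Sar1B, and 9.31 and 9.25 in Sar1B:H79G. The Sar1B:H79G arrays lay below those of Sar1B and Sar1A without overlap and overlapped with control. The differences were -0.41 (-0.68 to -0.14, adjusted p = 0.083) from Sar1B, -0.28 (-0.61 to 0.05, adjusted p = 0.44) from Sar1A and -0.11 (-0.38 to 0.16, adjusted p = 0.51) from control. The difference from Sar1B passed the test with the line number as a block (adjusted p = 0.049, limma). These numbers do not pair clones of different groups. The difference also passed with the line as a random block (adjusted p = 0.00021). Abhd5, the protein that activates Pnpla2, had Sar1B:H79G line means of 9.62 and 10.18, on either side of most other lines, and a difference from control of -0.19 (-0.63 to 0.25, adjusted p = 0.47). Its second probe set gave 0.42 (0.00 to 0.85, adjusted p = 0.13), so that the direction depends on the probe set. That probe set also gave 0.42 in Sar1B and 0.41 in Sar1A against control, and 0.01 in Sar1B:H79G against each of these. Lipe, the hormone-sensitive lipase that acts on diglyceride, lay between 9.85 and 10.16 in all 7 line means and differed by 0.16 (-0.06 to 0.37, adjusted p = 0.24) between Sar1B:H79G and control. On its dimmer probe set, Sar1B lay above control by 0.19 (0.01 to 0.37, adjusted p = 0.15) and Sar1A by 0.22 (0.00 to 0.44, adjusted p = 0.21), both with no overlap of arrays, and Sar1B:H79G by 0.06 (-0.12 to 0.24, adjusted p = 0.58).

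Mgll, which splits the last ester bond of monoglyceride, was lower in Sar1B:H79G on its brightest probe set, 1388644_at. The arrays read 8.11, 8.12, 7.99 and 7.91 in Sar1B:H79G line 1 and 7.87, 8.02, 8.12 and 7.96 in line 2, against 8.40 and 8.28 in control line 1 and 8.50, 8.32 and 8.34 in control line 2. The lowest, median and highest Sar1B arrays were 8.36, 8.48 and 8.69, and those of Sar1A were 8.40, 8.43 and 8.50. The Sar1B:H79G arrays overlapped with no other group. The difference was -0.35 ± 0.09 (SE) from control (adjusted p = 0.036, limma), -0.51 ± 0.09 from Sar1B (adjusted p = 0.021) and -0.43 ± 0.11 from Sar1A (adjusted p = 0.11). The other 3 probe sets did not read alike. On 1370831_at, Sar1B rose by 0.52 ± 0.08 against control (adjusted p = 0.023), Sar1B:H79G was below Sar1B by -0.45 ± 0.08 (adjusted p = 0.026), and Sar1B:H79G and control differed by 0.07 (-0.13 to 0.27, adjusted p = 0.58). On 1375355_at, Sar1B:H79G lay above control by 0.30 (adjusted p = 0.061, limma) with no overlap of arrays. Sar1B and Sar1A lay above control there too, by 0.20 (adjusted p = 0.2) and 0.26 (adjusted p = 0.23). Sar1B:H79G and Sar1B differed by 0.10 on it (adjusted p = 0.67). On 1375247_at, Sar1B:H79G was below Sar1B by -0.30 (adjusted p = 0.066). With the mean of all 4 probe sets, the difference from control was -0.00 (adjusted p = 0.98) and that from Sar1B was -0.29 (adjusted p = 0.052). The call against control was also lost without each line of either group, at adjusted p = 0.094 without control line 1 or Sar1B:H79G line 1, 0.16 without control line 2 and 0.11 without Sar1B:H79G line 2. The call against Sar1B was lost when only these groups were fitted and without either control line (adjusted p = 0.062 each), when Sar1B line 2 was left out (0.078), and for Sar1B:H79G line 1 (0.055) or line 2 (0.071).

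**Figure D2:**
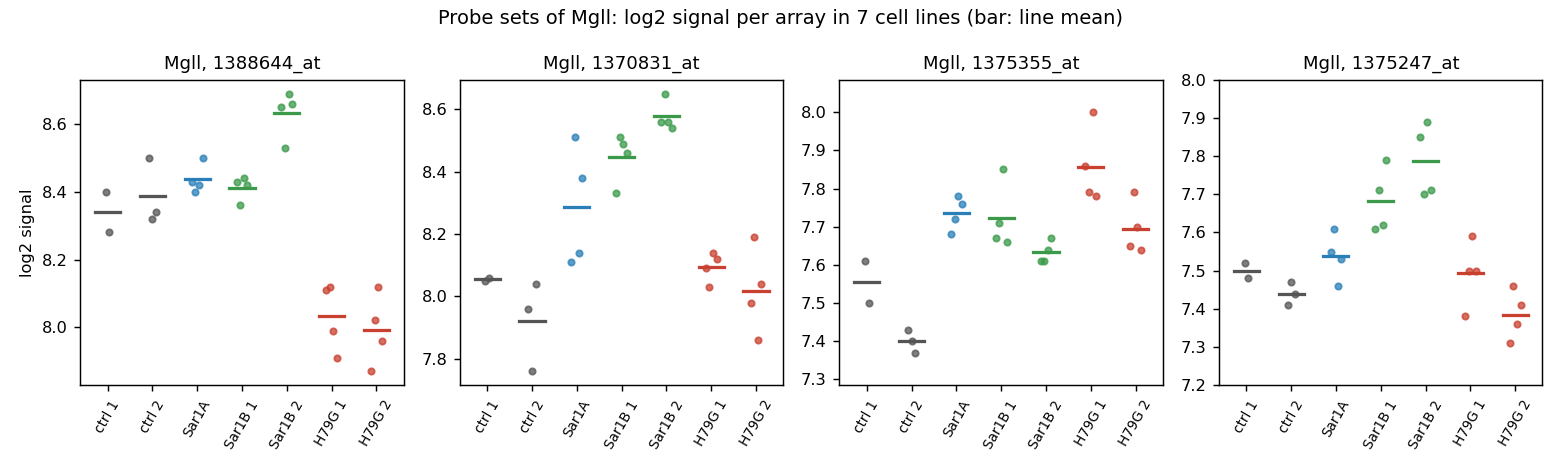
Log2 signal of the 4 probe sets of Mgll (y axis, a separate range in each panel) in the 7 cell lines (x axis). Points are arrays and bars are line means, and the Sar1B:H79G lines are the lowest on 1388644_at (means 8.03 and 7.99). On 1375355_at they lie above control (means 7.86 and 7.69 against 7.55 and 7.40), as do Sar1B (7.72 and 7.63) and Sar1A (7.74).

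Lipa, the acid lipase that hydrolyses triglyceride and cholesteryl ester in the lysosome, showed the largest fall of the 10 genes in Sar1B:H79G against control. The arrays read 9.87, 9.97, 9.78 and 9.73 in Sar1B:H79G line 1 and 9.74, 9.66, 9.73 and 9.72 in line 2. The controls read 10.93 and 10.91 in line 1 and 10.68, 10.65 and 10.69 in line 2. Sar1A read 11.10, 11.02, 10.96 and 11.11, and the Sar1B arrays had a lowest value of 10.43, a median of 10.65 and a highest value of 10.76. The mutant arrays lay below all others, both mutant clones were alike, and the Sar1A arrays lay above all others. The log2 difference was -1.02 ± 0.11 (SE) from control (adjusted p = 0.0031, limma), -0.87 ± 0.11 from Sar1B (adjusted p = 0.0081) and -1.27 ± 0.13 from Sar1A (adjusted p = 0.011). These are falls of 2.03-fold, 1.82-fold and 2.42-fold. The call against Sar1A was lost when only these groups were fitted (adjusted p = 0.069). Sar1A differed from Sar1B by 0.41 (0.09 to 0.72, adjusted p = 0.61) and from control by 0.25 (-0.07 to 0.57, adjusted p = 0.3), and neither passed the test.

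Lipc, the secreted lipase that acts on lipoproteins at the surface of hepatocytes, was lowest in Sar1B:H79G and next lowest in Sar1A. The arrays read 8.20, 8.37, 8.14 and 7.89 in Sar1B:H79G line 1, 8.23, 8.10, 8.34 and 8.24 in line 2, and 8.47, 8.28, 8.54 and 8.41 in Sar1A. The controls read 9.20 and 9.10 in line 1 and 9.04, 9.14 and 8.98 in line 2. The Sar1B clones differed, at 9.29, 9.42, 9.42 and 9.37 in line 1 and 8.65, 8.51, 8.80 and 8.78 in line 2, on either side of control. Sar1B:H79G overlapped with Sar1A and with neither control nor Sar1B. Lipc fell by 0.91 on the log2 scale in Sar1B:H79G against control (SE 0.21, adjusted p = 0.029, limma), and this call depended on every line of both groups, with adjusted p = 0.11 and 0.14 when the first or the second control line was left out and 0.091 and 0.067 for the Sar1B:H79G lines. The difference was -0.84 (-1.35 to -0.34, adjusted p = 0.063) from Sar1B and -0.24 (-0.86 to 0.38, adjusted p = 0.84) from Sar1A. Without Sar1B line 1 or line 2, the difference from Sar1B was -0.50 or -1.19, and the gap between these clones left the spread. With both Sar1B lines, the difference passed the test on probe sets above the median (adjusted p = 0.04, limma). It also passed with trend and robust options (adjusted p = 0.038) and with the line as a random block (adjusted p = 5e-06). Sar1A differed from control by -0.68 (-1.29 to -0.06, adjusted p = 0.19) with no overlap of arrays, and passed the test with only these groups fitted (adjusted p = 0.011) and with the line as a random block (adjusted p = 0.0034).

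Among the transgenic lines, which share a name prefix, Sar1B:H79G against Sar1B called 3 of the 10 genes, Plin3, Mgll and Lipa, all lower. Of all genes, 7.18% were called lower and 4.90% higher, and the medians were -0.46 for the 10 genes and 0.01 for all. Against Sar1A, 2 of the 10 were called, Plin3 and Lipa, both lower, beside 2.22% lower and 1.98% higher of all genes, with medians of -0.26 and 0.01. The count against Sar1B was 2 without either control line or Sar1B:H79G line 2, 3 without Sar1B:H79G line 1 and 4 without either Sar1B line. The count against Sar1A was 1 without either Sar1B:H79G line, 3 without either Sar1B line and 0 when only these groups were fitted. The comparisons with Sar1B:H79G share its 2 lines and are not independent of each other.

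**Figure D3:**
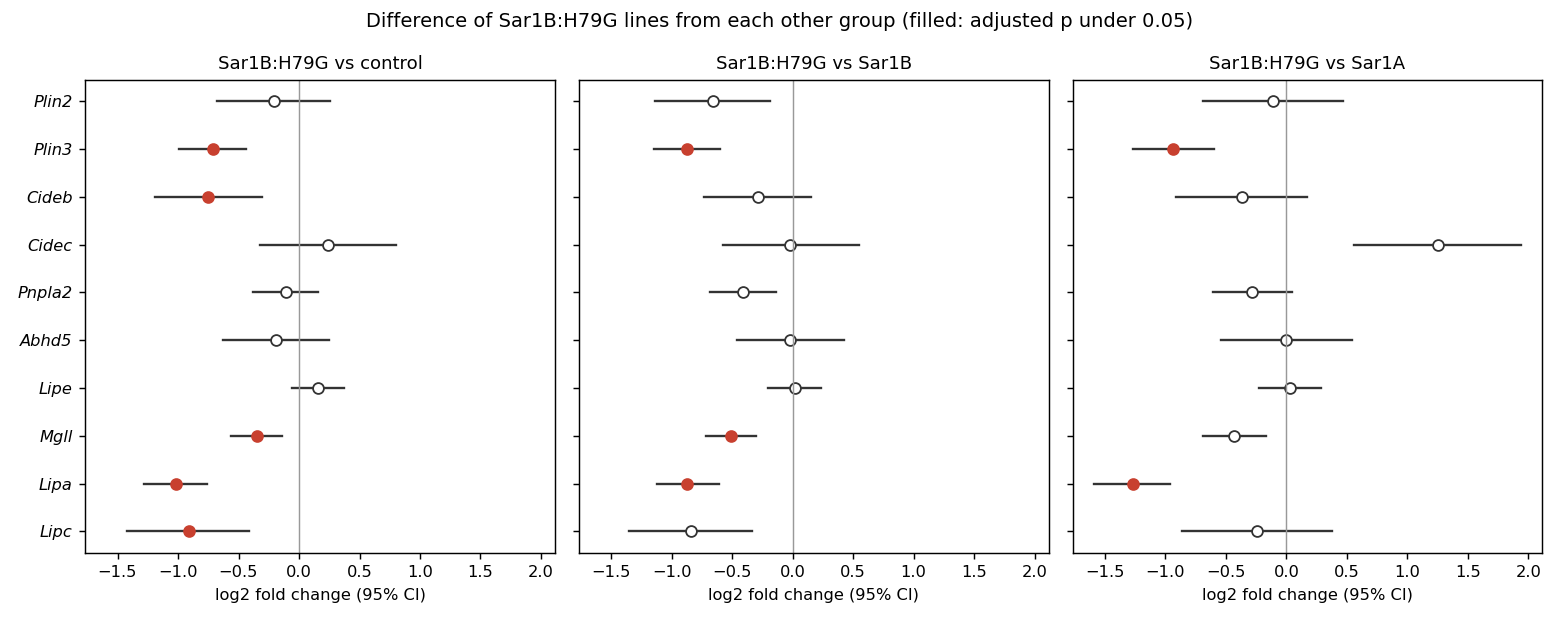
Log2 difference of the Sar1B:H79G lines from control, Sar1B and Sar1A (x axis, bars are 95% intervals) for the brightest probe set of each gene (y axis). Filled points have an adjusted p under 0.05, and they number 5, 3 and 2 of 10 in the 3 panels, all below 0.

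On the brightest probe set of each gene, wild-type Sar1 gave no call among the 10 genes by limma, while the Mgll probe set 1370831_at was called in Sar1B against control. In Sar1B against control, 0 were called beside 6.73% of all genes, with medians of 0.15 and 0.03. An unadjusted p under 0.05 was found for 2 (Cideb and Pnpla2), beside 3869 of all 14217 genes. In Sar1A against control, 0 were called beside 0.865% of all genes, with medians of -0.01 and 0.02. Here 2 (Cidec and Lipc) had an unadjusted p under 0.05, beside 2817 of all genes. In Sar1A against Sar1B, 0 were called beside 0.00703% of all genes, with medians of -0.05 and -0.01. Here 2 (Cidec and Lipa) had an unadjusted p under 0.05, beside 1207 of all genes. The counts that follow are of other fits, whose shares of all genes are not given here. They therefore cannot be read as a result about the 10 genes. With each array as a replicate, a fit that takes technical replicates for lines, the counts of calls were 6, 6 and 4. With the line as a random block they were 3, 2 and 4, and with only the groups compared in the fit 1, 2 and 0. The count in Sar1B against control was 1 without either Sar1B:H79G line, which enter that comparison only through the shared estimate of the spread.

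A list of 22 further droplet proteins and assembly factors, all measured, had 3 genes called higher and 3 lower in Sar1B:H79G against control, 13.6% of the list each way beside 13.4% higher and 10.6% lower of all genes. Acsl3, an acyl-CoA synthetase found on nascent droplets, fell in Sar1B:H79G, with log2 differences of -1.39 ± 0.09 (SE) from control (adjusted p = 0.00099), -1.70 from Sar1B (adjusted p = 0.0016) and -1.68 from Sar1A (adjusted p = 0.0056). Mettl7a and the droplet dehydrogenase Hsd17b11 fell by 1.03 and 0.56 against control (adjusted p = 0.008 and 0.0036) and by 0.92 and 0.53 against Sar1B (adjusted p = 0.02 and 0.0076). Rab18, a GTPase of the droplet surface, rose by 0.83 against control (adjusted p = 0.0067) and Aup1, a droplet protein that recruits ubiquitin-conjugating enzyme, by 0.50 (adjusted p = 0.008). Fitm2, an endoplasmic reticulum protein that acts in droplet budding, rose by 0.38 (adjusted p = 0.014). Against Sar1B, Rab18, Aup1 and Fitm2 were not called, at 0.37, 0.23 and -0.08 (adjusted p = 0.12, 0.12 and 0.61, limma). Rab18 also lay above control in Sar1B and Sar1A, by 0.46 and 0.48, neither called, where Aup1 differed by 0.26 and -0.13. Aup1 was the gene of this list called higher against Sar1A, by 0.63 (adjusted p = 0.025). In Sar1B against control, Fitm2 and the seipin gene Bscl2 rose by 0.47 and 0.49 (adjusted p = 0.02 and 0.042), Bscl2 being named after its value was seen. The remaining perilipins, Plin1, Plin4 and Plin5, were not called, at -0.21, -0.02 and 0.01 against control. Plin1 and Plin5 had means of 7.85 and 7.82 in Sar1B:H79G, below the median of 8.13 of all probe set means.

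Of 21 further lipases, esterases and cofactors, 18 were measured by a probe set with 1 symbol, and 1 was called lower in Sar1B:H79G against control and 1 against Sar1B, which is 5.56% of the list beside 10.6% and 7.18% of all genes. This was Daglb, a diacylglycerol lipase, which fell by 0.33 (SE 0.08, adjusted p = 0.037) against control and by 0.44 (adjusted p = 0.03) against Sar1B. The lipoprotein lipase Lpl, which takes triglyceride from lipoproteins in other tissues, differed by 0.00 (-0.19 to 0.19) from control. Its mean was 6.97 in both groups, below the median of 8.13 of all probe set means.

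Of 13 transcription factors and coactivators known to act on droplet and lipase genes, 2 were called higher and 5 lower in Sar1B:H79G against control, and 3 higher and 4 lower against Sar1B. These are 15.4% and 38.5% of the list against control, beside 13.4% and 10.6% of all genes, and 23.1% and 30.8% against Sar1B, beside 4.90% and 7.18%. The liver factor Cebpa fell by 1.32 against control (adjusted p = 0.015, limma). It was not called against Sar1B (-0.78, adjusted p = 0.12) or Sar1A (-1.45, adjusted p = 0.064). Sar1B itself differed from control by -0.54 for Cebpa (adjusted p = 0.2). The liver factor Hnf4a fell by 0.78 against control (adjusted p = 0.0025), by 0.92 against Sar1B (adjusted p = 0.003) and by 0.63 against Sar1A (adjusted p = 0.027). Nr1h3, which encodes the sterol receptor LXR alpha, fell by 0.63, 0.84 and 0.54 in the same comparisons (adjusted p = 0.0028, 0.0027 and 0.025). The coactivator Ppargc1a fell by 0.68 and 0.51 against control and Sar1B (adjusted p = 0.011 and 0.046). The lysosomal regulators moved in opposite directions, with Tfe3 higher by 0.73, 0.47 and 0.80 against control, Sar1B and Sar1A (adjusted p = 0.0018, 0.0099 and 0.0098) and Tfeb, named after its values were seen, which fell by 0.38, 0.43 and 0.54 (adjusted p = 0.013, 0.015 and 0.028). Cebpb rose by 0.50 and 0.53 against control and Sar1B (adjusted p = 0.034 and 0.049), and Ppard, also named after its value was seen, rose by 0.43 against Sar1B (adjusted p = 0.025). In Sar1B against control the 1 call was Foxo3, named in the same way, which fell by 0.47 (adjusted p = 0.029). The receptors Ppara and Pparg were not called, at -0.02 and 0.25 against control. Ppara had a mean of 7.68 in Sar1B:H79G, below the median of 8.13 of all probe set means. Over the 3 lists, 53 genes were measured, and Sar1B:H79G differed from control in 14 of them, from Sar1B in 11 and from Sar1A in 6, by limma. Against control 5 of the 53 were higher and 9 lower, beside 13.4% and 10.6% of all genes. Against Sar1B they were 3 and 8, beside 4.90% and 7.18%, and against Sar1A 2 and 4, beside 1.98% and 2.22%. Sar1B differed from control in 3, beside 6.73% of all genes, and Sar1A differed from control and from Sar1B in 0, beside 0.865% and 0.00703%. At an unadjusted p under 0.05 these counts were 31, 20, 18, 19, 9 and 10. Over all 14217 genes they were 5796, 3921, 2799, 3869, 2817 and 1207. The count of 14 became 7 when control line 2 was left out. The count of 3 became 1 when control line 1 was left out, 0 for control line 2 or either Sar1B line, and 8 for either Sar1B:H79G line. The count of 11 was 7 without Sar1B line 1 and 5 without Sar1B line 2, and the count of 6 was 2 without either control line and 0 with only these groups in the fit.

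**Figure D4:**
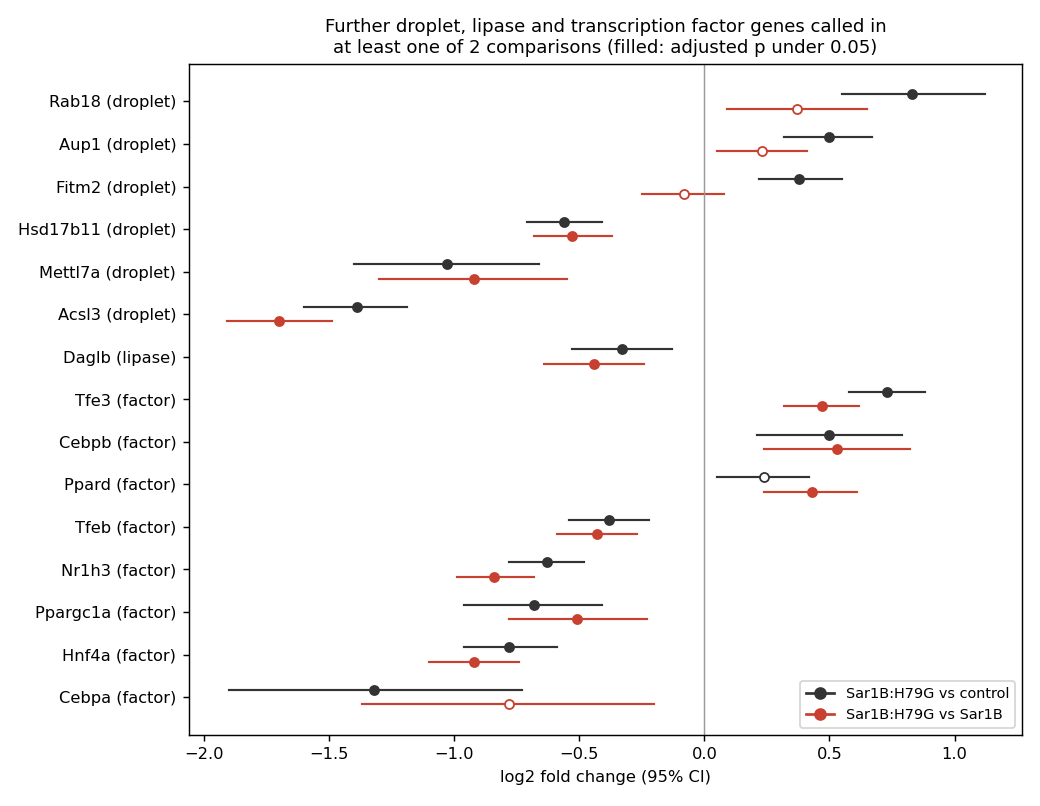
Log2 difference (x axis, bars are 95% intervals) of the Sar1B:H79G lines from control (black) and from Sar1B (red) for the 15 genes of the 3 further lists called in at least 1 of these comparisons (y axis). Filled points have an adjusted p under 0.05, and Acsl3 lies farthest from 0, at -1.39 and -1.70.

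The genes whose levels ran most like a member's were searched for the 3 members called against both control and Sar1B, over the 7 line means and 9422 genes above the median signal, as a description. For Plin3 the highest Pearson r were those of Erf (0.989), Ak4 (0.989) and Idi1 (0.987). For Mgll they were Gstt3 (0.995), Cish (0.993) and Cep250 (0.992), and for Lipa they were Ppa2 (0.992), Nr1d1 (0.984) and Nabp2 (0.984). The lines are few and share their groups, and 300, 398 and 302 genes had an r over 0.9 with Plin3, Mgll and Lipa.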

How the data were processed

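The arrays read RNA of 7 McArdle-RH7777 lines, 25 arrays in all. Signals were normalized with loess and summarized with MAS5 by the authors, in CARMAweb (its version is not given in the sources used here), and were deposited as log2 values with no detection calls. No source states the base of the log, which was taken as 2 because of the range of the values. Without detection calls, no level could be set against background.

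Of the 31042 probe sets left after 57 array controls, 20826 had 1 gene symbol, 436 several and 9780 none. A gene is represented by its probe set with the highest mean over all arrays, and the others are given beside it. The mean of a line's arrays was the unit of the fit, which used limma 3.58.1 (R 4.3.3) on 7 line means with 1 coefficient for each of 4 groups and had 3 residual and 3.16 prior degrees of freedom. Sar1A has 1 line, whose spread was taken to equal that of the other groups. The Benjamini-Hochberg adjustment ran over all 31042 probe sets, a call is an adjusted p under 0.05, and intervals are at 95%. The number of lines limits the precision. The fit was tested on simulated data.

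Members and lists were chosen with earlier results of these data known. Members were described in full where they passed a test. Of the further lists, up to 5 genes per list and comparison with the largest changes among those called in Sar1B:H79G against control or Sar1B were named, with the additions stated in the text. The 3 genes most like a member were taken for members called in both of these comparisons. There were 15 alternatives. The fit was repeated on single arrays, with lines as a random block (statmod 1.5.0), after quantile normalization or a shift of all arrays to 1 median, on the brighter 15521 probe sets, on the compared groups alone, with a trended and robust eBayes, with line numbers as a block, on the mean of a gene's probe sets, and with 6 lines left out in turn. The SAM test of the methods was not run, and the fit on single arrays stands for its unit of replication. The random block fit also used single arrays, with 1 correlation of 0.27 within lines for all genes. Arrays of a line thus counted in part as replicates in it.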

Additional observations from a re-analysis of the deposited data

Results flagged for a closer look

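In 4 of 64 groups of arrays tested, 1 array lay far from the others of its group, where chance flags about 1 in 20. The Plin3 signal of array 2 of Sar1B line 2 was 11.51, with the other Sar1B arrays between 11.68 and 11.84. The Cideb signal of array 3 of control line 2 was 10.75, with the other controls between 10.35 and 10.44. On the dimmer Lipe probe set, array 1 of control line 2 read 8.45, with the others between 8.59 and 8.65. On the Mgll probe set 1375355_at, array 3 of Sar1B line 1 read 7.85, with the other Sar1B arrays between 7.61 and 7.71.

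In 4 of 32 pairs of lines of 1 group, every array of 1 line lay above the control mean and every array of the other line below it, and these differences were not tested. The Sar1B lines differed by 0.69 for Lipc, at 0.27 and -0.42 from the control mean. They differed by 0.65 for Cidec, at 0.58 and -0.07, and by 0.32 for the dimmer Plin2 probe set, at 0.17 and -0.15. The Sar1B:H79G lines differed by -0.56 for Abhd5, at -0.47 in line 1 and 0.09 in line 2.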

How the results depend on the processing

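Of 150 values of the 10 called results under 15 alternatives, 125 kept their call, 25 lost it and 0 turned sign. The calls of Lipa and Plin3 against control and Sar1B were kept throughout. Their adjusted p was up to 0.021 and 0.04 for Lipa and 0.034 and 0.039 for Plin3 (limma). The lost calls are given with each gene. Gained ones are given too, other than those gained only with single arrays, the random block or a line left out. A line left out also leaves fewer samples for the spread; other causes were not tested.

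In what follows counts of calls are given in 1 order, for control against Sar1B:H79G, Sar1B and Sar1A, then for Sar1B:H79G with Sar1B, for Sar1B:H79G with Sar1A, and for Sar1A with Sar1B. The members called were 5, 0, 0, 3, 2 and 0. With each array as a replicate, which takes technical replicates for lines, the last 5 were 6, 6, 7, 6 and 4, and with the line as a random block 3, 2, 6, 4 and 4. The shares of all genes called in the alternative fits are not given here, so that these counts stand without one. With only the groups compared, Sar1B and Sar1A gave 1 and 2 against control, and Sar1B:H79G gave 0 against Sar1A. With a line left out, the count ranged from 2 to 5 for Sar1B:H79G and from 0 to 1 for Sar1B against control, and from 1 to 3 for Sar1B:H79G against Sar1A.

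Of the further genes, 14, 3, 0, 11, 6 and 0 were called. These counts were 35, 27, 20, 26, 22 and 14 with each array as a replicate. With the line as a random block they were 31, 19, 10, 21, 19 and 4. Shares of all genes under these alternatives are not given here. With only the groups compared, Sar1B and Sar1A gave 8 and 2 against control and Sar1B:H79G gave 0 against Sar1A, and Sar1B gave 5 against control with trend and robust options. With a line left out, Sar1B:H79G gave 7 to 16 against control, 5 to 9 against Sar1B and 2 to 6 against Sar1A, and Sar1B gave 0 to 8 against control.

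Numbers of lines do not pair clones of different groups. Over all probe sets, line 1 minus line 2 correlated at 0.007 between control and Sar1B, 0.192 between control and Sar1B:H79G, and 0.075 between Sar1B and Sar1B:H79G. With the line number as a replicate block, the members called were 4, 0, 0, 4, 2 and 0. Cideb was lost against control and Pnpla2 gained against Sar1B, and against Sar1A Plin3 was lost and Cidec gained, which was higher. Under the block, the further genes called in Sar1B:H79G against Sar1A were 3, Abhd5 was -0.14 in Sar1B:H79G against Sar1A and 0.12 in Sar1A against Sar1B, and Plin3 was -0.00 in the latter.

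Of 750 values of results not called, 662 kept their side, 54 became called and 34 turned sign. With the mean of all probe sets, Abhd5 was 0.12, 0.12 and 0.11 against control in Sar1B:H79G, Sar1B and Sar1A, and Lipe was -0.06 and -0.07 in Sar1B:H79G against Sar1B and Sar1A, and 0.01 between the latter. With quantile normalization, Plin3 was -0.01 in Sar1B against control, Cidec 0.05 and Abhd5 0.03 in Sar1B:H79G against Sar1B, and Abhd5 0.00 and Lipe 0.01 in Sar1A against Sar1B. Cidec was 0.01 in Sar1B:H79G against Sar1B with arrays shifted to 1 median.

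With a line left out, the values that turned sign lay in these ranges. Against control, Sar1B:H79G ranged from -0.26 to 0.04 for Pnpla2 and from -0.47 to 0.09 for Abhd5. Sar1B ranged from -0.01 to 0.33 for Plin3, -0.07 to 0.58 for Cidec and -0.42 to 0.27 for Lipc, and Sar1A from -0.21 to 0.01 for Plin2. Sar1B:H79G against Sar1B ranged from -0.34 to 0.31 for Cidec, -0.30 to 0.26 for Abhd5 and -0.06 to 0.09 for Lipe, and against Sar1A from -0.27 to 0.05 for Plin2, -0.28 to 0.28 for Abhd5 and -0.05 to 0.11 for Lipe. Sar1A against Sar1B ranged from -0.01 to 0.18 for Cideb, -0.08 to 0.03 for Abhd5, -0.05 to 0.02 for Lipe and -0.20 to 0.02 for Mgll.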
